A study of Mus musculus with 12 samples.

Results

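In embryos lacking HOXA13 and HOXD13, 8434 of the 37433 autosomal H3K27ac peaks lay where wild-type embryos had no called acetylation, no called binding of either factor and no called Polycomb mark. These are acetylated places that were called in the mutant only and that no factor peak touched. The members were chosen by overlap of deposited peak lists: a double-mutant H3K27ac peak was kept if it shared not even 1 bp with a peak of wild-type H3K27ac, HOXA13, HOXD13 or wild-type H3K27me3. Of the 37433 autosomal peaks, 11393 had no wild-type H3K27ac peak (30.4%). Of these 11393 peaks, 1476 overlapped a HOXA13 or HOXD13 peak, and a further 1483 overlapped wild-type H3K27me3. The 8434 that remained made up 22.5% of the autosomal list and 74.0% of its gained peaks, and they covered 9.74 Mb. "Gained" means here only that a peak was called in the double mutant and not in wild type, and the wild-type absence that chose these peaks is not a finding about them.

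Acetylation of lysine 27 on histone H3 marks active promoters and enhancers. Trimethylation of the same residue is laid down by Polycomb repressive complex 2 and marks silenced genes, so that 1 histone tail cannot carry both on the same lysine. Both factors belong to the homeodomain family, act in the distal limb bud and are known for their joint requirement in digit formation. They bind DNA at enhancers and promoters, so acetylation that differs in their absence can lie at their sites or away from them.

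Distal forelimb buds were taken at E11.5 (E for embryonic day) from mice of mixed C57BL/6 and CD1 background. Wild-type buds were profiled by chromatin immunoprecipitation and sequencing (ChIP-seq) for HOXA13, HOXD13, H3K27ac and H3K27me3, and Hoxa13-/-;Hoxd13-/- buds (the double mutant) for both histone marks. Per the labels' protocols, the Hoxa13 coding sequence is interrupted by a neomycin cassette, and exon 1 of Hoxd13 by a lacZ reporter, in the mutant alleles. E10.5 forelimb buds of CD1 mice were profiled for H3K27me3 with an antibody from another supplier. Each profile is 1 library, and the labels do not say how many embryos it pools or of which sex. No comparison between genotypes therefore has a replicate check, and no p-value is given. HOX13 binding was mapped in wild type alone. HOXA13 chromatin was cross-linked with disuccinimidyl glutarate as well as formaldehyde, the other chromatin with formaldehyde alone.

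On autosomes the lists held 37433 double-mutant and 31220 wild-type H3K27ac peaks, 30657 HOXA13 and 22372 HOXD13 peaks, and 19624 wild-type, 18973 double-mutant and 15077 E10.5 H3K27me3 peaks. The deposited peak score grows as the peak caller's p-value falls, starts at 50 and was compared only within 1 list. Read depth is unknown, and the double-mutant list is the longer one, so more acetylation and a more sensitive library cannot be told apart for any single gained peak. Positions are on mm9. No gene model or genome sequence of mm9 was used here, so peaks are given by position, without a gene name or a sequence.

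The gained, unbound peaks were mostly low and narrow. Their median score was 85.3 (quartiles 63.5 and 127), and 61.6% of them scored below 100. The comparison used throughout is with shared peaks of the same list that passed the same exclusions: 13644 double-mutant H3K27ac peaks that overlapped wild-type H3K27ac but neither HOX13 nor wild-type H3K27me3. Their median score was 563 (quartiles 190 and 1634), and 10.48% scored below 100. Median widths were 1027 bp (quartiles 865 and 1325) for the gained and 1892 bp (1376 and 2457) for the shared unbound peaks. Width went with score. Within the bands under 200 the median widths lay close together, with 837 bp against 868 bp for scores of 50 to under 75 and 1320 bp against 1280 bp for 100 to under 200. In the higher bands gained peaks were the wider ones, with 1950 bp (1912 to 2002 bp) against 1783 bp (1756 to 1803 bp) for 200 to under 500. At 500 and over the medians were 3105 bp (2550 to 3978 bp) over 34 gained and 2324 bp (2301 to 2344 bp) over 7159 shared unbound peaks. Of the other gained peaks, the 1233 that were HOX13-bound outside H3K27me3 had a median score of 87.4 and a median width of 1049 bp, and the 1483 unbound ones inside wild-type H3K27me3 had 94.9 and 1019 bp. These 3 gained classes thus overlapped almost fully in score and width, and it was the shared class that stood apart. The remaining 243 gained peaks, HOX13-bound and inside wild-type H3K27me3, had a median score of 103 (90.8 to 114) and a median width of 1127 bp. Of these 243 peaks 5.76% scored 500 and over, against 0.403% of the gained, unbound peaks outside H3K27me3.

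**Figure D1:**
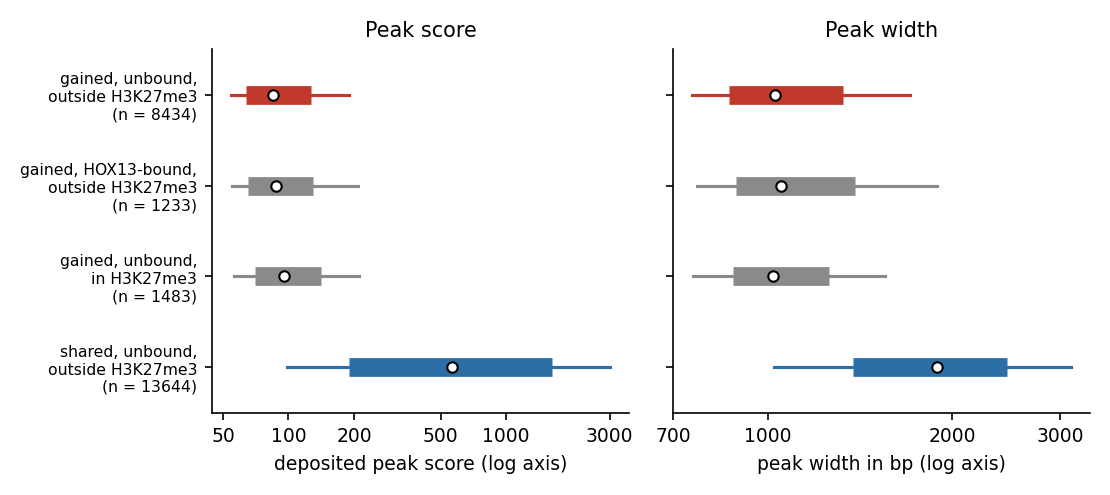
Deposited score (left) and width (right) of double-mutant H3K27ac peaks on log axes, for 3 classes of gained peaks and for shared unbound peaks; circles are medians, thick bars quartiles and thin lines the 10th to 90th percentiles over peaks of 1 library. The gained classes have medians of 85.3, 87.4 and 94.9 in score, the shared unbound peaks 563.

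The share of peaks meeting the rule was lower in each higher band of the score. It was 57.9% (Wilson 95% interval 56.6 to 59.2%, counting of peaks only) for scores of 50 to under 75, and 48.7% (47.2 to 50.3%) for 75 to under 100. From 100 to under 200 it was 33.3% (32.3 to 34.4%), and from 200 to under 500 it was 10.4% (9.73 to 11.2%). Of the 13549 peaks scoring 500 and over, 34 met the rule, which is 0.251% (0.180 to 0.350%). Peaks near the calling threshold were the ones most often called in 1 genotype only, and the list's highest-scoring part contributed next to none. With both H3K27ac lists reduced to equal length by score, 4874 peaks met the rule.

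**Figure D2:**
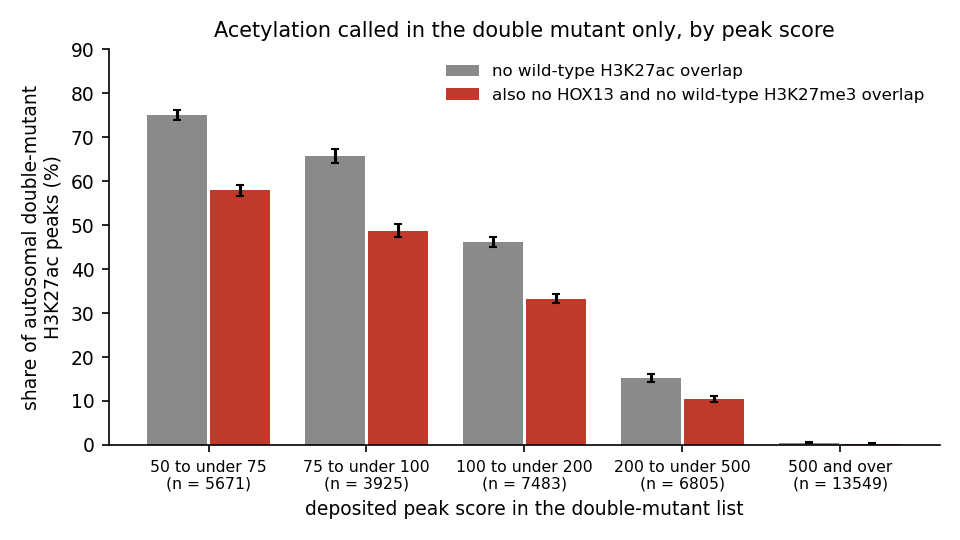
Share of autosomal double-mutant H3K27ac peaks (vertical axis, %) in 5 bands of their deposited score, for all gained peaks (grey) and for gained, unbound peaks outside wild-type H3K27me3 (red), with Wilson 95% intervals that cover counting only. The red bars go from 57.9% in the lowest band to 0.251% in the highest.

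The 10 highest-scoring members outside chromosome 18, whose regions were counted but are not named, had scores of 674 to 1265. The highest was a 6565 bp peak on chromosome 2 at 75243207 to 75249771, with a score of 1265, above 78.5% of the autosomal list. A HOXD13 peak (score 481) lay 626 bp from its edge, the nearest wild-type H3K27ac peak 8.21 kb away, and another member 320 bp away. It was also the widest member. The second was a 5307 bp peak on chromosome 6 at 51008900 to 51014206 (score 1018), with a HOXA13 peak of score 95.5 at 958 bp and wild-type H3K27me3 at 0.812 kb. The third was a 4959 bp peak on chromosome 2 at 166146309 to 166151267 (score 945), with the nearest factor peak, of HOXA13, at 6.72 kb and another member at 697 bp. Next came a peak on chromosome 4 at 132575620 to 132579594 (score 882), 18.6 kb from a HOX13 peak and 1.82 kb from wild-type H3K27ac. A 6267 bp peak on chromosome 13 at 56692950 to 56699216 (score 861) lay 123 bp from a shared peak of score 3100 and 69 bp from another member. That score is the commonest value of the list, held by 2732 peaks, so it marks a peak as among the highest without ranking it further.

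The other 5 were a chromosome 5 peak at 24246443 to 24248616 (score 845), 2 chromosome 4 peaks at 132500952 to 132503290 (score 829) and 149337832 to 149340942 (score 721), and 2 chromosome 11 peaks at 105894441 to 105896011 (score 784) and 108787791 to 108792886 (score 674). Distances to the nearest factor peak ranged from 0.626 to 68.6 kb over the 10 peaks, and distances to the nearest shared acetylation from 0.0660 to 8.04 kb. All 10 thus had shared acetylation within 10 kb, while their distance to HOX13 peaks varied widely. Of the 10 peaks, those on chromosomes 6 and 13 and the highest, on chromosome 2, left the set when peaks within 1000 bp counted as overlapping. Those 3 and the chromosome 11 peak at 108787791 left it when neighbouring peaks were joined first.

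The rule's edge was thinly populated. A peak of an excluded list lay within 100 bp of 219 members (2.60%), most often wild-type H3K27ac (137 peaks), and their median score was 82.4. Another 119 peaks missed the rule through overlaps of 100 bp or less, with a median score of 80.6. The median scores just inside and just outside the rule were thus alike. Whether wild-type signal or binding is continuous across this edge was not tested, as the lists hold no read counts.

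Although none overlapped a factor peak, the gained, unbound peaks had a shorter median distance to HOX13 sites than shared unbound peaks did. The median distance between edges to the nearest HOXA13 or HOXD13 peak was 11.4 kb (95% interval of the median 11.1 to 11.9 kb) for gained and 21.8 kb (21.3 to 22.5 kb) for shared unbound peaks. A factor peak lay within 10 kb of 46.2% of the gained (45.1 to 47.2%) and 29.8% of the shared unbound peaks (29.0 to 30.5%). Over all autosomal double-mutant H3K27ac peaks, which include those overlapping a factor peak, this share was 54.1%. Within 1 kb the shares were 6.63% and 3.75%, beside 32.8% over all peaks, and within 100 kb they were 96.0% and 90.1%, beside 94.3%. Both sets exclude peaks that share a base with a factor peak, so a distance of 0 can only come from abutting edges. The smallest distance was 0.00200 kb for gained and 0 kb for shared unbound peaks.

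Much of that gap went with the score. Gained peaks had nearly the same median distance in the bands under 500: 11.4 kb for scores of 50 to under 75, 11.3 kb for 100 to under 200 and 12.1 kb for 200 to under 500. At 500 and over it was 9.54 kb (6.21 to 16.6 kb, 34 peaks). For shared unbound peaks the median went from 14.4 kb (11.9 to 16.7 kb) in the lowest band to 29.6 kb (28.5 to 30.5 kb) at 500 and over. In the lowest band the intervals of gained (10.8 to 12.3 kb) and shared peaks met. From 100 to under 200 they did not, with 11.3 kb (10.51 to 12.2 kb) for 2495 gained and 14.7 kb (13.8 to 15.8 kb) for 2157 shared peaks. For scores under 200, which hold 7690 gained and 3587 shared unbound peaks, a factor peak lay within 10 kb of 46.3% (45.2 to 47.4%) and 39.6% (38.0 to 41.2%). Within 1 kb the shares were 6.80% (6.26 to 7.39%) and 7.11% (6.31 to 8.00%), and within 500 bp 3.17% (2.80 to 3.59%) and 4.04% (3.45 to 4.74%). The gap at 1 kb over all scores was thus not seen among low-scoring peaks, where the difference lay at longer range. The order of the medians turns when bound peaks are not left out: the medians were then 8.70 kb for gained and 5.76 kb for shared peaks outside H3K27me3. When all lists were limited to scores of at least 100, which also thins the factor lists, the medians were 21.1 kb and 41.8 kb.

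The kind of HOX13 site nearby was close to the general mix. Sites were made by merging overlapping HOXA13 and HOXD13 peaks. Of the 3894 nearest sites within 10 kb of a gained, unbound peak, 60.4% (58.9 to 62.0%) carried peaks of both factors, 31.3% (29.9 to 32.8%) of HOXA13 only and 8.24% (7.42 to 9.15%) of HOXD13 only. Over all 33296 autosomal sites these shares were 58.1%, 33.2% and 8.72%. Beside shared unbound peaks they were 57.4% (55.9 to 58.9%), 32.7% and 9.90%. The members farthest from any factor peak were 1060 kb away on chromosome 13 (61905364 to 61906235, score 68.3), 978 kb away on chromosome 14 (44502615 to 44503663, score 443) and 898 kb away on chromosome 12 (18616563 to 18617568, score 100). The chromosome 14 peak combined a score in the upper part of the members' range with no factor peak for almost 1 Mb on either side.

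**Figure D3:**
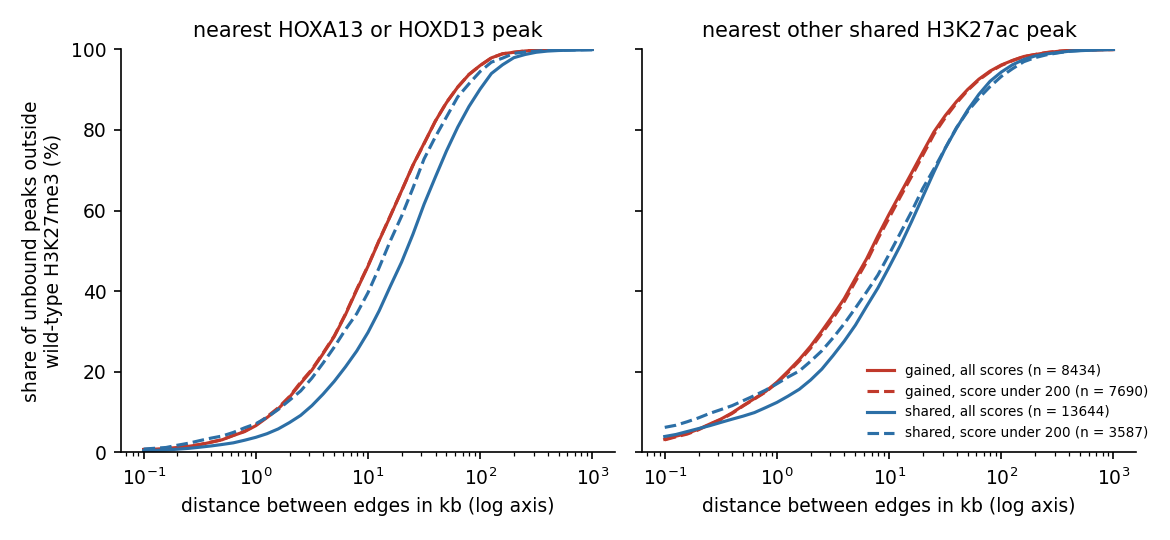
Cumulative share of peaks (vertical axis, %) with a HOXA13 or HOXD13 peak (left) or another shared H3K27ac peak (right) within a given distance between edges (horizontal log axis, kb), for gained (red) and shared (blue) unbound peaks outside wild-type H3K27me3, over all scores (solid) and for scores under 200 (dashed). At 10 kb the solid curves read 46.2% and 29.8% on the left, and 59.1% and 46.0% on the right.

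Acetylation present in both genotypes was also nearer by the median. The nearest shared H3K27ac peak was at a median of 6.81 kb (6.55 to 7.07 kb), against 11.9 kb (11.51 to 12.3 kb) from a shared unbound peak to the next shared one. A shared peak lay within 10 kb of 59.1% (58.1 to 60.2%) of the gained and of 46.0% (45.1 to 46.8%) of the shared unbound peaks, beside 48.9% of all autosomal peaks. Within 1 kb the shares were 17.4% and 12.4%, beside 14.7%, and within 100 kb they were 96.1% and 94.3%, beside 93.7%. The order of the medians held in all 5 score bands, from 7.28 against 11.4 kb in the lowest to 6.77 against 14.3 kb in the highest, the latter over 34 gained peaks. It did not hold at short range: for scores under 200, a shared peak lay within 1 kb of 17.2% (16.4 to 18.1%) of gained and 17.0% (15.8 to 18.3%) of shared unbound peaks. Within 100 bp the shares were 3.12% (2.76 to 3.53%) and 6.22% (5.47 to 7.05%), so the closest neighbours were more often seen beside shared peaks. At the widest separations, 48 members (0.569%) had neither a factor peak nor a shared peak within 100 kb. The 3 farthest from shared acetylation were 3077 kb away on chromosome 2 (97383474 to 97384127, score 59.4), 2138 kb away on chromosome 14 (89955706 to 89956665, score 104) and 1310 kb away on chromosome 9 (11917156 to 11918134, score 78.6). The chromosome 14 peak had a HOXD13 peak of score 204 at 1.12 kb, so isolation from acetylation was not isolation from binding.

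Both kinds of neighbour often came together. A factor peak and a shared peak were both within 10 kb of 3000 members (35.6%, 34.6 to 36.6%) and of 21.0% (20.3 to 21.7%) of shared unbound peaks, and neither was within 10 kb of 30.3% and 45.3%. The shared peak nearest to a member was itself HOX13-bound in 42.3% of cases (41.3 to 43.4%), while 36.5% of all shared peaks were bound. For shared unbound peaks the nearest other shared peak was bound in 31.4% of cases (30.7 to 32.2%). In the bands under 500 this difference was smaller: 42.9% (41.2 to 44.6%) against 39.5% (36.0 to 43.1%) for 50 to under 75, with intervals that met, and 42.8% (40.9 to 44.8%) against 38.5% (36.5 to 40.6%) for 100 to under 200, with intervals that did not. At 500 and over the shares were 44.1% (28.9 to 60.5%) of 34 and 26.3% (25.3 to 27.3%).

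Shared peaks close to a member were wider in the double mutant than in wild type. This was looked at after the map of the longest run had been seen, and it comes from the same pair of H3K27ac lists as the rule, so it is a description. The double-mutant width was divided by the summed width of the wild-type peaks it overlapped. The median ratio was 1.19 (1.18 to 1.20) for the 5757 shared peaks within 10 kb of a member, 1.07 (1.07 to 1.08) from 10 to 100 kb and 1.03 (1.02 to 1.03) beyond 100 kb. Close to a member 77.5% were wider in the double mutant, and beyond 100 kb 58.3% were. Among shared peaks scoring 500 and over the ratios were 1.20, 1.08 and 1.04 in the same order. For HOX13-bound shared peaks they were 1.14, 1.04 and 0.999. A double-mutant peak spanning more than 1 wild-type peak was seen at 8.34% of shared peaks within 10 kb of a member and at 1.79% beyond 100 kb.

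Members often lay near other members. Another member lay within 50 kb of 70.5% of them (69.6 to 71.5%), and a member lay within 50 kb of 48.5% of shared unbound peaks (47.6 to 49.3%), beside 53.8% of all autosomal peaks. For gained, HOX13-bound peaks outside H3K27me3 this share was 58.5% (55.7 to 61.2%). Another peak of their own class lay within 50 kb of 71.2% (70.5 to 72.0%) of shared unbound peaks. Having a neighbour of the same class was thus not particular to members. Neighbours counted in peak order, rather than in bases, again put members ahead of shared unbound peaks. The next double-mutant H3K27ac peak along the chromosome was a member after 30.1% of members (29.2 to 31.1%), after 20.2% of shared unbound peaks (19.5 to 20.9%) and after 19.1% of other gained peaks (17.8 to 20.6%), against the 22.5% that members make up of the list. By score band the share after members was 29.3% for 50 to under 75 and 33.0% for 200 to under 500. After shared unbound peaks it was 20.3% and 27.3% in these bands. Where peaks were dense, members made up more of the list: 16.4% of peaks in windows of 1 Mb with under 20 peaks, and 31.6% in those with 60 or more. Within windows grouped by peak number, a grouping chosen after the other values were seen, the next peak was a member after 21.9% (20.04 to 23.9%) of members and 14.6% (13.5 to 15.8%) of shared unbound peaks where peaks were sparse, and after 38.1% (35.2 to 41.0%) and 29.4% (26.9 to 32.0%) where they were dense. The order was the same in windows of 20 to under 40 and of 40 to under 60 peaks. In runs of consecutive members, 4256 members (50.5%) stood in 1715 runs of 2 or more, the other 4178 stood alone, and 70 runs held 5 or more. A class making up 22.5% of the list also forms runs when placed without regard to its neighbours. No such share is given beside the 50.5%, which is therefore a description only.

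The longest runs were on chromosomes 2, 9 and 17, followed by 3 runs of 8 members. The longest had 13 members in 46.8 kb of chromosome 2, from 166068724 to 166115528, with scores of 51.3 to 276, and no wild-type H3K27ac, HOX13 or H3K27me3 peak lay inside it. The highest-scoring of the 13 was at 166112456 to 166114150. The third-highest member of the whole set lay 30.8 kb further along. The second run had 11 members in 74.9 kb of chromosome 9, from 63519885 to 63594804, with scores of 57.4 to 307, and it too held no peak of those lists; its highest was at 63544238 to 63546390. On chromosome 17, 9 members stood in a row from 27349125 to 27480135, the highest (score 289) at 27453640 to 27455696, with 1 HOXA13, 1 HOXD13 and 2 wild-type H3K27me3 peaks between them. On chromosome 5, 8 members stood from 113463472 to 113544502, the highest (score 231) at 113542646 to 113544502, with no HOX13 peak and 2 wild-type H3K27me3 peaks between them. Another 8 stood from 67154993 to 67313984, the highest (score 132) at 67252162 to 67253257, with 5 HOXA13 and 4 HOXD13 peaks between them. The third run of 8, on chromosome 11 from 67345451 to 67466747, had a highest score of 127, the lowest of the 3. Long runs thus occurred both where no factor peak was called and where several were.

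**Figure D4:**
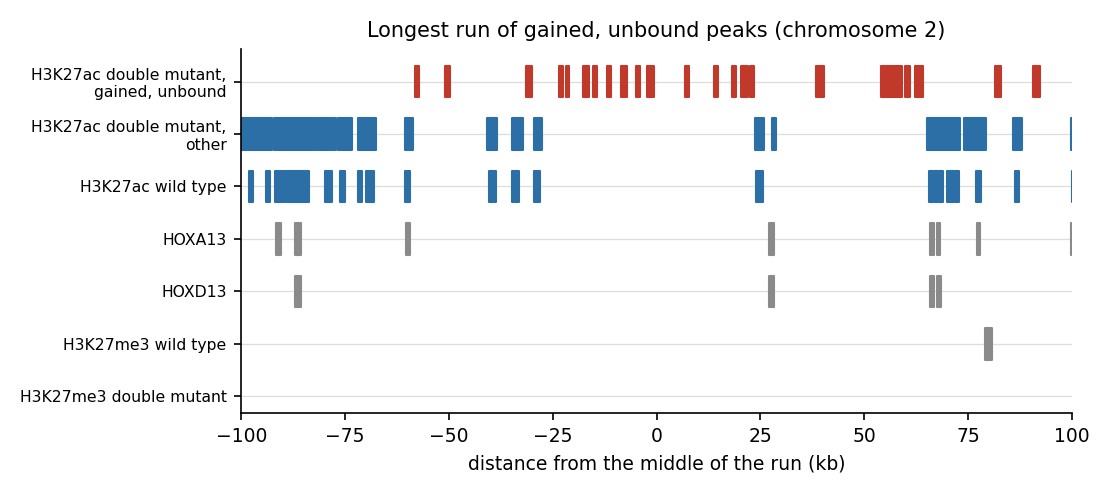
Called peaks as bars in 7 tracks within 100 kb of the middle of the longest run of gained, unbound peaks (horizontal axis, kb from the middle of the run). The stretch holds 23 members (red) beside 17 other double-mutant and 19 wild-type H3K27ac peaks (blue), and 8 HOXA13, 4 HOXD13 and 1 wild-type H3K27me3 peaks (grey); the run of 13 fills the central 46.8 kb.

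In fixed windows of 1 Mb, members were unevenly spread. Of 2079 windows with an autosomal double-mutant H3K27ac peak, 581 held no member, the median was 2 and the highest count 50. The 281 windows with 10 or more held 50.2% of all members. These windows were picked by member number, and the share of all peaks in them is not given here. The value is thus not read as a spread more uneven than that of peaks in general. The windows with most members also held many shared peaks, and smaller numbers of other gained and of lost wild-type peaks. The fullest was chromosome 2 from 166 to 167 Mb, with 50 of 104 peaks (48.1%, 38.7 to 57.6%), 18 HOXA13 and 9 HOXD13 peaks. There 52 peaks were shared, and 4 of 60 wild-type peaks had no double-mutant counterpart. The next were chromosome 2 from 27 to 28 Mb with 37 of 79 peaks (46.8%, 36.2 to 57.7%), chromosome 13 from 60 to 61 Mb with 37 of 90 (41.1%, 31.5 to 51.4%), and the same chromosome from 56 to 57 Mb with 35 of 82 (42.7%, 32.5 to 53.5%). Tied with 33 members each were chromosome 17 from 84 to 85 Mb, of 89 peaks (37.1%, 27.8 to 47.5%), and chromosome 11 from 117 to 118 Mb, of 84 (39.3%, 29.5 to 50.0%). These 6 windows held 42 to 54 shared, 0 to 7 other gained and 0 to 4 lost wild-type peaks. Other gained peaks were also the smaller class in the whole list, where members made up 74.0% of gained peaks. The lost counts have no list-wide share beside them here, so they are not read as low. All 6 intervals of the member share lay above the 22.5% of the whole list, which a ranking by member number favours. Over the 759 windows with at least 20 peaks, the share of members went from 0 to 55.2%, with quartiles of 16.1% and 31.5%. By chromosome it went from 18.9% (16.6 to 21.5%) on chromosome 19 to 25.4% (23.6 to 27.3%) on chromosome 6. Chromosomes hold 1004 to 3148 peaks each, so counting error spreads their shares less than those of windows. The narrower range by chromosome is thus not read as regional structure.

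**Figure D5:**
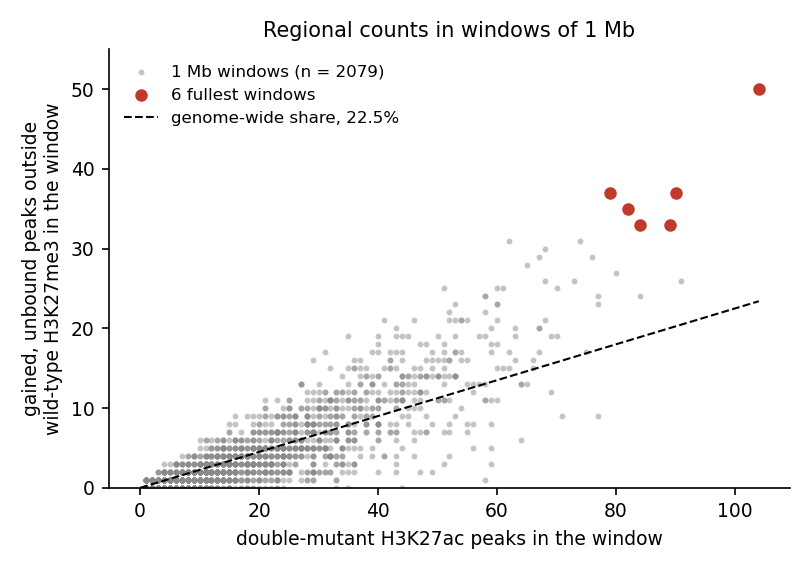
Members (vertical axis) against all autosomal double-mutant H3K27ac peaks (horizontal axis) in 2079 fixed windows of 1 Mb; red points are the 6 fullest windows and the dashed line is the share in the whole list, 22.5%. The red points hold 33 to 50 members each and lie above the line.

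Absence of Polycomb chromatin was chosen in wild type only, and was checked on the H3K27me3 lists that the rule did not use. In the double mutant the mark was nearly absent from members too: 36 (0.427%, 0.308 to 0.590%) overlapped it, against 0.484% (0.380 to 0.615%) of shared unbound peaks and 13.2% of all autosomal peaks. The low level against all peaks follows largely from leaving out wild-type H3K27me3, which 15.7% of all peaks overlapped. At an overlap of 1 bp the members' and the shared peaks' shares did not differ beyond counting error. When every overlap had to reach 50% of either peak, the shares were 0.451% (0.333 to 0.612%) and 0.827%. That setting also loosens the exclusions, so both sets took in further peaks, giving 9085 members and 14508 shared unbound peaks. Whether the overlap setting alone changes the likeness within the main sets was not tested. The 5 highest-scoring of the 36 outside chromosome 18 were the chromosome 9 peak at 21968771 to 21970233 (score 565), the chromosome 2 peak at 154777704 to 154778967 (score 181), the chromosome 8 peaks at 124024244 to 124026108 (score 179) and 123034845 to 123036403 (score 172), and the chromosome 11 peak at 85693836 to 85695194 (score 164). The overlap was 772 bp at the first and 1068 bp at the second, but 50 bp at the third and 8 bp at the last. Some of these pairs thus only met at an edge.

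At E10.5, 169 members (2.004%, 1.73 to 2.33%) lay in called H3K27me3, against 1.90% (1.68 to 2.14%) of shared unbound peaks and 13.1% of all autosomal peaks. The equality over all scores did not hold within every band. From 100 to under 200, 2.85% of members (2.26 to 3.57%) and 1.58% of shared unbound peaks (1.13 to 2.19%) overlapped the E10.5 mark, and from 200 to under 500 the shares were 2.68% and 2.62%. The 169 peaks had a median score of 103 and lay a median of 4.24 kb from wild-type E11.5 H3K27me3. The E10.5 library differs from the E11.5 libraries in strain, antibody and part of the limb, so stage cannot be told apart from these.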

How the data were processed

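Peak lists of 7 immunoprecipitated libraries were used, out of 12 samples. The authors aligned reads with Bowtie 0.12.7 and called peaks with MACS 1.4 (build mm9; per the submitters' processing notes), and each list was called per library against an input, per the list names. The deposited score is read as -10 times log10 of the caller's p-value. No peak lay past a chromosome end of mm9, and every list had peaks past one of mm10. The lists hold no read counts, so depth is unknown. Overlap meant 1 bp or more, and distances are bases between edges. Shares carry Wilson 95% intervals and medians binomial order-statistic 95% intervals; both treat neighbouring peaks as independent and cover counting only. Overlap and distance code was tested on simulated data (5000 of 5000 pairs recovered). Python 3.11.15, pandas 2.3.3 and scipy 1.17.1 were used. Named regions are the highest-scoring, widest, most distant and most clustered members and the highest-scoring with double-mutant H3K27me3; members, rule and comparisons were chosen with earlier results of these data known. A set of 8 alternatives was tried.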

Additional observations from a re-analysis of the deposited data

How the results depend on the processing

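The 10 results were recomputed under 8 alternatives, and 42 of the 80 values stayed within the counting interval of the main result (counts within 1.5 times). No paired analysis was possible because each group has 1 library. With all lists limited to scores of at least 100, 5054 peaks (18.2%) met the rule. Their median score was 151 and width 1427 bp, with 21.1 kb to HOX13 and 9.14 kb to shared peaks. Of them, 0.237% lay in double-mutant and 1.33% in E10.5 H3K27me3, and 60.0% had another member within 50 kb. The main set held fewer peaks of such scores: 2495 from 100 to under 200, 710 from 200 to under 500 and 34 at 500 and over. This cut also removes weak peaks of the excluding lists, so it admits peaks that the main rule left out. When overlap had to reach 50% of either peak, 24.3% were members, 10.51 kb from HOX13, 1.64% in E10.5 H3K27me3 and 71.6% with a member within 50 kb. With peaks within 1000 bp counted as overlapping, the values were 18.3%, 13.6 kb to HOX13, 8.80 kb to shared peaks, 0.614% and 2.38% in the H3K27me3 lists, and 65.0% with a member within 50 kb. With H3K27ac lists of equal length there were 4874 members (15.6%), of median score 118 and width 1246 bp, 2.38% in E10.5 H3K27me3 and 60.0% with a member within 50 kb. Joining peaks closer than 1000 bp gave 19.3%, width 1046 bp, 13.9 kb to HOX13, 10.3 kb to shared peaks, 59.6% with a member within 50 kb and 30 members in the fullest window. Excluding all H3K27me3 lists gave 22.0%, and 0% in both other lists by construction. Keeping HOX13-bound peaks gave 25.8%, 8.70 kb to HOX13, 7.25 kb to shared peaks and 72.5% with a member within 50 kb. Including the X chromosome moved none of the 10 results. Lists cut by score are shorter by construction. Counting peaks within 1000 bp as overlapping removes the members nearest to HOX13 peaks, and keeping HOX13-bound peaks adds distances of 0. Joining peaks removes the shortest distances to shared peaks. These distances thus move by construction, and the cause of the remaining changes was not tested. The next peak was a member more often after a member than after a shared unbound peak under all 8 alternatives, from 22.1% against 13.9% (equal lengths) to 34.3% against 24.0% (HOX13-bound peaks kept).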

Other observations

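Lost acetylation lay near members about as often as near all autosomal peaks. A wild-type H3K27ac peak absent from the double mutant lay within 50 kb of 28.4% of members (27.4 to 29.4%) and of 24.5% of shared unbound peaks (23.8 to 25.3%), beside 26.7% of all autosomal peaks. In the bands under 500 the order of the shares turned, but to the digits shown the intervals met in each of these bands. For scores of 50 to under 75 the shares were 29.3% (27.8 to 30.9%) and 34.3% (30.9 to 37.8%). For 200 to under 500 they were 22.8% (19.9 to 26.0%) and 26.9% (25.3 to 28.6%). At 500 and over they were 8 of 34 members (12.4 to 40.0%) and 1433 of 7159 shared unbound peaks (19.1 to 21.0%).

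The mirror set, wild-type H3K27ac peaks with no double-mutant H3K27ac, no HOX13 and no wild-type H3K27me3 overlap, numbered 2021 on autosomes, with a median width of 949 bp. Their nearest HOX13 peak was at a median of 17.5 kb (16.5 to 19.3 kb) and their nearest wild-type peak kept in the double mutant at 17.98 kb (16.8 to 19.6 kb). They come from another list, so these distances stand beside the members' 11.4 and 6.81 kb without a comparison.

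On the X chromosome, which the rule leaves out, 71 of 677 double-mutant H3K27ac peaks had no wild-type counterpart (10.49%, 8.40 to 13.0%), against 30.4% on autosomes. Of these 71 peaks, 49 overlapped wild-type H3K27me3, and 21 met the other conditions of the rule.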
